A study of Rattus norvegicus with 8 samples.

Results

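Elastin, the fibulins, emilin-1 and the lysyl oxidases build and crosslink the elastic fibres of the artery wall, and 10 genes of this kind (Eln, Fbln1, Fbln2, Fbln5, Efemp1, Efemp2, Emilin1, Lox, Loxl1 and Loxl2) were followed in muscular type arteries. They were taken by gene symbol, with earlier results of these data known, and all 10 were found among the 19239 genes measured. Messenger RNA was profiled on Affymetrix Rat Gene 1.0 arrays in saphenous arteries, hind limb arteries of the muscular type, of male Wistar rats. The 4 adult samples came from rats of 2 to 3 months, each holding the 2 arteries of 1 animal, and the 4 young samples came from rats of 10 to 12 days, each pooling 4 arteries from 2 animals. No animal carried an altered gene or received a treatment, so age was the only factor of the design, and a young sample averages a pair of animals where an adult sample shows a single one. The question of the comparison was how expression changes between early postnatal life and adulthood.

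Elastic fibres are laid down by smooth muscle cells, fibroblasts and endothelial cells mostly around birth and in early life, and elastin protein turns over very slowly afterwards. Tropoelastin, the soluble product of Eln, is gathered by fibulins on a scaffold of fibrillin microfibrils, and lysyl oxidases, which are copper enzymes, oxidise its lysines so that the chains become crosslinked into a rubber-like polymer that lets the artery recoil. Values are log2 expression as deposited, each difference is given as adult minus young ± its standard error from limma (n = 4 arrays at each age), and a gene was called where the Benjamini-Hochberg adjusted p over all genes was below 0.01 (two-sided). In whole arteries, fewer cells of a type and less RNA per cell cannot be told apart.

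Of the 10 genes, 8 were lower in adult arteries, 1 (Efemp1) was higher and 1 (Fbln1) did not pass the test. Over all genes measured, 32.7% were called, 16% lower and 16.7% higher. The values of the ages did not overlap for any of the 10 genes, with adult arrays below young ones in 9 and above them in 1. Of all genes, 46% showed such a separation, 21.5% with adult arrays below and 24.4% with adult arrays above. The median difference of the 10 genes was -1.03 and that of all genes was 0.0024. Fbln5, Fbln2, Eln, Lox and Loxl1 fell at least 2-fold, as 1.32% of all genes did with a call.

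The arrays hold no sequence data, so the promoters of the short fibulins, 3 related proteins whose expression went different ways with age, are shown from RefSeq (assembly GRCr8). The table gave promoters for 5 of the 10 genes (Fbln5, Efemp1, Efemp2, Fbln2 and Loxl1). Each window runs from 250 bases before to 50 bases after the annotated start of the gene, 5′ to 3′ on the strand of the gene, and both strands were searched for short motifs. Capitals mark matches to the CCAAT box (the letters of its name), to the GC box with the letters GGGCGG, to the AP-1 motif with the letters TGANTCA, to the MCAT motif with the letters CATTCC, to the TATA box with the letters TATAAA and to the CArG box. The E-box (letters CANNTG) and the SMAD box (letters GTCTAGAC) were searched too but are left in lower case. The windows are chr6:126742657-126742956 on the minus strand for Fbln5, chr14:106811614-106811913 on the plus strand for Efemp1 and chr1:212211472-212211771 on the plus strand for Efemp2.
Fbln5: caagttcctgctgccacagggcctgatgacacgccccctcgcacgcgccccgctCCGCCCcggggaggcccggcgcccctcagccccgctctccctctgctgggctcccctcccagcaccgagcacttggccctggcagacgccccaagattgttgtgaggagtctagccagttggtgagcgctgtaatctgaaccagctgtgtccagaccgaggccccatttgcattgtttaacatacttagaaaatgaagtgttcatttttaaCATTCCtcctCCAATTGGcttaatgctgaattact
Efemp1: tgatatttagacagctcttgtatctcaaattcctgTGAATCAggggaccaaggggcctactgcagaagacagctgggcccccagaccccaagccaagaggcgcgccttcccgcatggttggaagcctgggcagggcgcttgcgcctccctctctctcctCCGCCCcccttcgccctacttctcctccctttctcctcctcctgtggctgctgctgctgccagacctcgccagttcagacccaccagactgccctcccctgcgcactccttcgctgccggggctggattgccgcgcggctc
Efemp2: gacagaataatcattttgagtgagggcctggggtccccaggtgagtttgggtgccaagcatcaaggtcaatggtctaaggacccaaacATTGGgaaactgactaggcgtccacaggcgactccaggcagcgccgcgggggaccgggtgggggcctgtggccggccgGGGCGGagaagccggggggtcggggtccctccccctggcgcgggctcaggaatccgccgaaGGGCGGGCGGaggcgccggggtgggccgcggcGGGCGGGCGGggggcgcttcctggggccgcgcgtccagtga

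The Efemp2 window, of the gene that fell least among the called fibulins, held 5 GC boxes, of which 4 overlap in pairs, 28 CpG dinucleotides and 71% G and C. The Fbln5 and Efemp1 windows each held 1 GC box and 14 CpG, and the median of all 33469 promoters in the table was 7 CpG. A GC box was found in 33.1% of all promoters, and in 4 of the 5 windows of these genes. The MCAT motif, a binding motif of TEAD factors, was present in Fbln5 and Loxl1 and in 14.2% of all promoters. In Fbln5 the CCAAT box matched once on each strand after the start site, in letters that overlap each other and an E-box, and this box was present in 37.5% of all promoters and in 2 of the 5 windows. Fbln5 held 5 E-box matches and Efemp1 and Efemp2 held 1 each, against a share of 72.1% of all promoters with at least 1. Efemp1, the gene that was higher in adult arteries, had the only match of the 5 windows to the AP-1 search letters (7.33% of all promoters). The search allowed any middle base, here an A (TGAATCA), so the match need not be an AP-1 site. None of the 5 windows held a TATA box (14.2% of all promoters), a SMAD box (0.197%) or the CArG box of serum response factor (1.64%). These matches describe letters and were not tested against expression.

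Elastin (Eln, Entrez Gene 25043), the core protein of the fibre, was expressed far more strongly in arteries of young rats. Its values were 13.41, 13.41, 13.41 and 13.44 in young replicates 1 to 4 and 11.45, 11.35, 11.04 and 10.78 in adult replicates 1 to 4. Every young array lay above every adult array, and the adult arrays varied much more among themselves than the young ones. The level was 4.81-fold higher in young arteries (95% confidence interval 3.83 to 6.04), a difference of -2.27 ± 0.14 (limma adjusted p = 2.05e-05). Only 27 of the 19239 genes had a lower difference. Counted from the top of each array, Eln held place 9, 9, 9 and 8 in young replicates 1 to 4 and places 224 to 470 in adult arrays. Quantile normalization gives each place a fixed value on every array. The young SD of 0.01 (n = 4) is therefore no measure of the spread between young samples. The standard error, interval and p of Eln rest partly on this SD and may be too narrow.

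**Figure D1:**
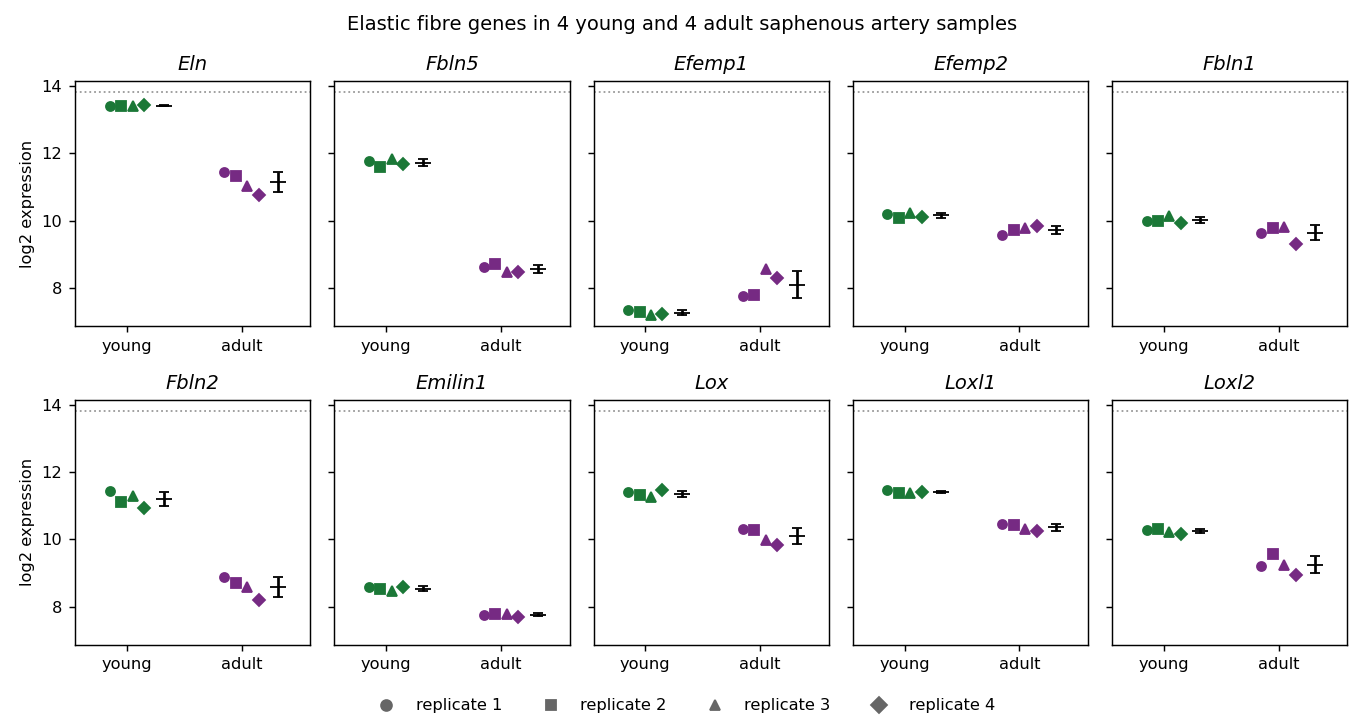
Log2 expression (vertical axis) of the 10 genes in young (green) and adult (purple) arteries, with a marker shape for each replicate number, the mean and SD of 4 arrays as black bars, and the highest value of the table, 13.82, as a dotted line. Young Eln lies close under the dotted line, Fbln5 and Fbln2 show wide gaps between the ages, and Efemp1 is the gene with adult values above young ones.

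The short fibulins, which tether tropoelastin to microfibrils and to lysyl oxidases, did not change alike. Fibulin-5 (Fbln5, Entrez Gene 29158), which binds both tropoelastin and integrins of the cell surface, showed the lowest difference of the 10 genes. Its values were 11.79, 11.61, 11.82 and 11.70 in young and 8.64, 8.72, 8.47 and 8.49 in adult replicates 1 to 4, with a gap of 2.89 between the closest arrays of the ages. It was 8.87-fold higher in young arteries (95% confidence interval 7.90 to 9.95), a difference of -3.15 ± 0.071 (limma adjusted p = 4.77e-07), and 6 genes of the whole table had a lower difference.

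Fibulin-4 (Efemp2, Entrez Gene 293677), which brings lysyl oxidase to elastin and without which mice form no functional elastic fibres, moved in the same direction but far less. It ranged from 10.09 to 10.22 in young and from 9.58 to 9.84 in adult arteries. The gap between the ages was 0.25, and the difference was -0.43 ± 0.059 (limma adjusted p = 0.000853). Within the same arrays, Fbln5 fell by 2.72 more than Efemp2 (standard error 0.105; exact permutation test of the within-array log2 ratio, two-sided, p = 0.0286, adjusted p = 0.0349 over 22 pairs of genes). The value 0.0286 is the smallest p that 4 against 4 arrays can give.

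Fibulin-3 (Efemp1, Entrez Gene 305604), a short fibulin that binds tropoelastin weakly and is known from fascia, the eye and basement membranes, was the gene that was higher in adult arteries. Its values were 7.37, 7.28, 7.22 and 7.25 in young and 7.78, 7.80, 8.57 and 8.29 in adult replicates 1 to 4. All adult arrays lay above all young arrays, but adult replicates 3 and 4 were well above adult replicates 1 and 2. The difference was 0.83 ± 0.18, or 1.78-fold (95% confidence interval 1.33 to 2.39, limma adjusted p = 0.00731). The call ended with the test named in the study's methods in place of limma (adjusted p = 0.0163) and when any of 5 arrays was left out, which were adult replicate 4 and each young replicate in turn (adjusted p = 0.0178 to 0.0227). With the lowest intensity of the table subtracted, the difference was 1.57. Adult replicates 1 and 2 carry sample codes 17 and 18 and adult replicates 3 and 4 carry 26 and 27, numbers whose meaning the labels do not give, and with codes below or above 20 as a block the difference was 0.75 ± 0.148 (limma adjusted p = 0.00766).

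Fbln5 and Efemp1 therefore went opposite ways in the same arrays. The log2 ratio of Fbln5 to Efemp1 was between 4.33 and 4.61 in young arrays and between -0.10 and 0.92 in adult arrays, a change of -3.98 ± 0.257 (exact permutation adjusted p = 0.0349). The changes of Efemp1 and Efemp2 differed by 1.26 ± 0.166 in the same test (exact permutation adjusted p = 0.0349). Efemp1 rose while Fbln5 and Efemp2 fell, each without overlap of the ages. These ratios therefore had to separate the ages, and the test could give only its smallest p. The p-values of these pairs add nothing to the separation of the single genes. The ratios give unequal change within arrays and not the relative abundance of the transcripts, since probe sets differ in brightness.

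Of the long fibulins, fibulin-2 (Fbln2, Entrez Gene 282583), a partner of elastin, fibrillin and versican that is prominent in developing vessels, fell strongly and fibulin-1 (Fbln1, Entrez Gene 315191), a component of elastic fibres and basement membranes, did not pass the test. Fbln2 was at 11.44, 11.11, 11.30 and 10.94 in young and at 8.88, 8.69, 8.59 and 8.19 in adult replicates 1 to 4. The ages lay 2.06 apart at their closest, and young Fbln2 varied more (SD 0.22, n = 4) than any other of the 10 genes in young arteries. The level was 6.10-fold higher in young arteries (95% confidence interval 4.65 to 8.00), a difference of -2.61 ± 0.166 (limma adjusted p = 2.41e-05).

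Fbln1 ranged from 9.93 to 10.14 in young and from 9.33 to 9.83 in adult arteries. The ages did not overlap, with adult replicate 4 lowest and a gap of 0.10. The difference was -0.36 ± 0.113 (95% confidence interval -0.63 to -0.10, limma adjusted p = 0.0334). With arrays centred by their ribosomal protein genes it passed the threshold (-0.33 ± 0.092, limma adjusted p = 0.00762), though the difference was smaller. Standard errors changed in that fit, down from 0.113 for Fbln1 and up from 0.035 to 0.069 for Emilin1. The pass is therefore no sign of a larger fall. Fbln2 fell by 2.24 more than Fbln1 in the same arrays (exact permutation adjusted p = 0.0349). The changes of Fbln1 and Efemp2 differed by 0.07 ± 0.148 (exact permutation p = 0.714), so a difference between this pair was not detectable with 4 arrays per age. The change of Fbln5 exceeded that of Fbln2 by 0.54 ± 0.143 (exact permutation adjusted p = 0.0349), and this call ended with the lowest intensity subtracted (adjusted p = 0.0662).

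Emilin-1 (Emilin1, Entrez Gene 298845), a glycoprotein at the interface of elastin and microfibrils that restrains TGF-beta processing and whose loss raises blood pressure in mice, had the smallest spread of the 10 genes in adult arteries. It ranged from 8.46 to 8.60 in young and from 7.71 to 7.79 in adult arteries. The adult SD was 0.04 and the young SD 0.07 (n = 4 each). The difference was -0.77 ± 0.035, or 1.71-fold (limma adjusted p = 6.31e-06), and it was -1.18 with the lowest intensity subtracted. Eln fell by 1.49 more than Emilin1 (exact permutation adjusted p = 0.0349).

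The 3 lysyl oxidases were all lower in adult arteries. Lysyl oxidase (Lox, Entrez Gene 24914), the main crosslinking enzyme of elastin and collagen in the aorta, was at 11.40, 11.31, 11.26 and 11.45 in young and at 10.32, 10.29, 9.97 and 9.85 in adult replicates 1 to 4. Young and adult arrays were separated by 0.94. The level was 2.38-fold higher in young arteries (95% confidence interval 1.97 to 2.86), a difference of -1.25 ± 0.114 (limma adjusted p = 0.000116).

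Loxl1 (Entrez Gene 315714), a relative that is directed to elastic fibres by fibulin-5 and maintains them in adult mice, was at 11.46, 11.37, 11.39 and 11.42 in young and at 10.45, 10.43, 10.30 and 10.24 in adult replicates 1 to 4. Its spread was narrow at both ages (SD 0.04 in young and 0.10 in adult arteries, n = 4 each), and the difference was -1.05 ± 0.051 (limma adjusted p = 8.07e-06). Loxl2 (Entrez Gene 290350), a family member best known for crosslinking basement membrane collagen, ranged from 10.17 to 10.31 in young and from 8.95 to 9.56 in adult samples. The ages differed by -0.998 ± 0.119 (limma adjusted p = 0.000422), with adult replicate 2 highest and adult replicate 4 lowest.

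The Lox to Loxl1 ratio shifted by -0.20 ± 0.073 (exact permutation adjusted p = 0.0349), so that Lox fell slightly more. The ages only just separated, as the highest adult ratio was -0.1357 and the lowest young ratio -0.1305. The change of Lox differed from that of Loxl2 by -0.25 ± 0.109 (exact permutation adjusted p = 0.0943) and the change of Loxl1 from that of Loxl2 by -0.05 ± 0.103 (exact permutation adjusted p = 0.659), neither past the threshold. Eln fell by 1.02 more than Lox, by 1.21 more than Loxl1 and by 1.27 more than Loxl2, each past the threshold (exact permutation adjusted p = 0.0349 each). The transcript of the crosslinked protein thus fell by more than those of the 3 enzymes. Eln also fell by 0.88 less than Fbln5 (exact permutation adjusted p = 0.0349), while its change and that of Fbln2 differed by 0.34 ± 0.121 (exact permutation adjusted p = 0.0662). The highest value of Eln lay 0.38 below the highest value of the table, against 2.00 for Fbln5 and 2.38 for Fbln2. Whether this upper limit made the fall of Eln smaller was not tested. Of the 22 pairs compared, 18 passed the threshold of 0.05. Among them was every pair with Efemp1, whose result was fixed by the opposite separation of the single genes. A result was also fixed where the gap of a gene between the ages was wider than its partner's range over all arrays. That was so for every other pair past the threshold except Fbln2 with Fbln5 and Lox with Loxl1. The p-values of such fixed pairs add nothing to the separation of the single genes.

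**Figure D2:**
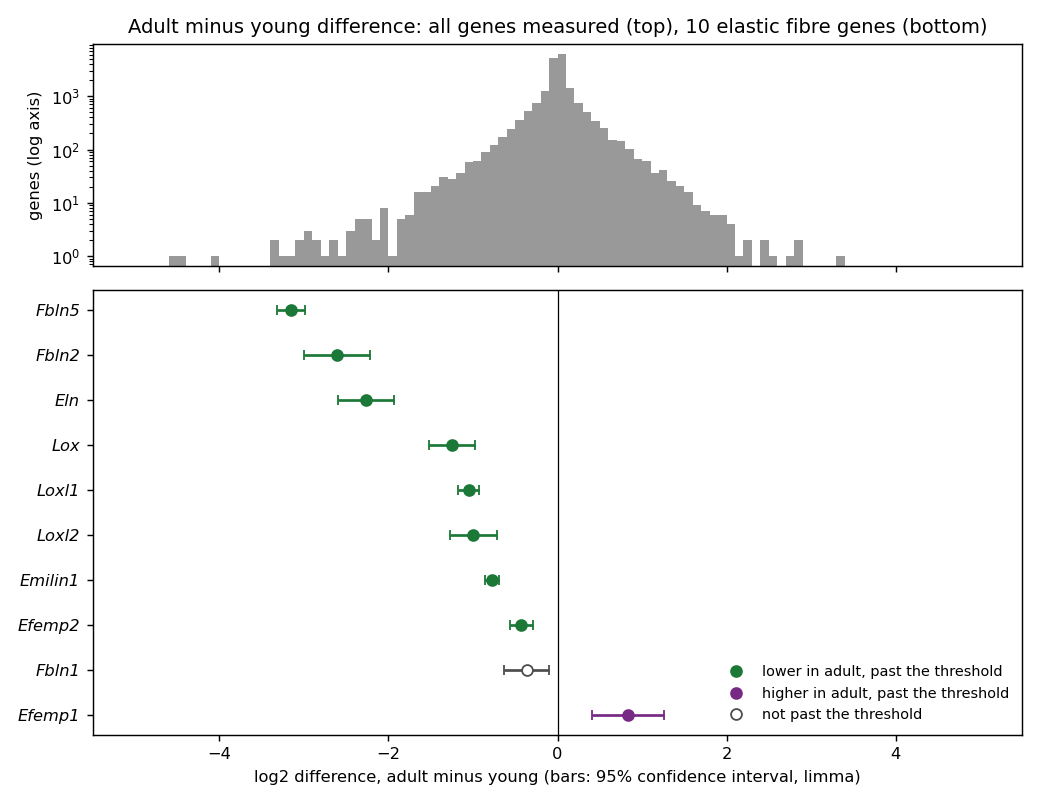
Distribution of the adult minus young log2 difference over all 19239 genes (top, number of genes on a log axis) and the difference of each of the 10 genes with its 95% confidence interval from limma (bottom, n = 4 arrays per age). Fbln5, Fbln2 and Eln lie in the far lower tail, from -3.15 to -2.27, and Efemp1 alone lies above 0.

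Adult arrays differed among themselves in a shared way for some of these genes. Eln, Fbln2, Lox and Loxl1 were all highest in adult replicate 1 and lowest in adult replicate 4. Eln deviated from its adult mean by 0.30 in replicate 1 and by -0.37 in replicate 4, and Fbln2 by 0.29 and -0.40. Efemp1 and Efemp2 were lowest in adult replicate 1. In adult replicate 4, 8 of the 10 genes were below their adult mean, and in adult replicate 2, 9 were above it. The pattern of replicate 1 highest and replicate 4 lowest was found in 15.5% of all genes called lower in adult arteries and in 9.09% of all genes. The mean of the fibroblast markers was 10.73 in adult replicate 1 and 10.59 in adult replicate 4, but its genes did not move alike. Pi16 (10.08 and 9.22), Dpt, Scara5 and Col1a1 were lower in replicate 4, and Pdgfra, Dcn and Lum were higher. The mean of the endothelial markers was 8.66 in replicate 1 and 8.22 in replicate 4. Ribosomal protein genes averaged 9.01 in replicate 1 and 9.18 in replicate 4. The part of these shifts in the pattern was not tested.

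**Figure D3:**
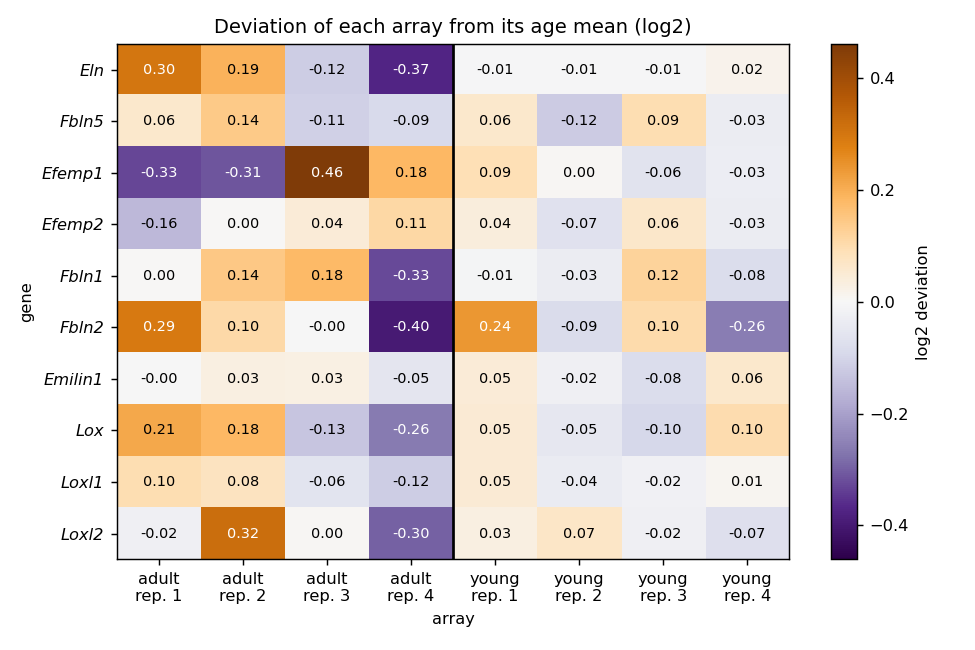
Deviation of each array (columns) from the mean of its age for each of the 10 genes (rows), on the log2 scale, with orange above and purple below the mean. Adult arrays 1 and 2 are above the mean and adult array 4 below it for Eln, Fbln2, Lox and Loxl1, while Efemp1 shows the reverse, and young arrays deviate by 0.26 at most.

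The genes whose values most resembled those of Eln over the 8 arrays, among genes with an official symbol and outside the 10, were Mrc2 (Pearson r = 0.999), Zdhhc15, Lrrk1, Ccn4 and Cep170 (r = 0.998 each). Mrc2 encodes an endocytic receptor for collagen and Ccn4 a matricellular protein of the Wnt response. Mrc2 fell by 1.67 and Ccn4 by 1.23. Of the 10 genes, Loxl1 (r = 0.998) and Lox (r = 0.995) followed Eln most closely and Efemp1 ran opposite (r = -0.918). These coefficients describe 8 arrays in 2 age groups, where any gene with a clear age difference gives a value near 1 or -1.

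Other genes of the elastic fibre pathway were followed in 7 lists with 59 measured genes, of which 27 were lower in adult arteries, 10 were higher and 22 did not pass the test. Set against 16% lower and 16.7% higher over all genes, the number higher was close to that background share. Of the microfibril proteins and latent TGF-beta binding proteins, 9 of 11 were lower and 1 was higher, with a median of -0.90. Mfap2, a small glycoprotein of microfibrils, fell by 2.93 (limma adjusted p = 1.08e-06) and Ltbp4, which guides fibulin-5 into elastic fibres, was 2.84-fold lower (limma adjusted p = 1.85e-05). Fibrillin-1 (Fbn1), the scaffold protein itself, fell by 1.46 (limma adjusted p = 3.03e-05) and is named after its value was seen. Ltbp1 rose by 0.37 ± 0.072 (limma adjusted p = 0.00427), a call that was lost with the test named in the study's methods and without adult replicate 2, 3 or 4 or young replicate 3. Adamtsl2, at 7.08 in adult and 7.13 in young arteries, was called with a difference of -0.05 that was lost with ribosomal protein centring and without any single array except adult replicate 1.

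Relatives of the fibulins, emilin and lysyl oxidases showed 5 of 8 genes lower, with a median of -0.38, and the other 3 did not pass the test. Hemicentin-1 (Hmcn1), a giant relative of the fibulins, fell by 1.79 (limma adjusted p = 5.05e-05) and fibulin-7 (Fbln7) by 1.31 (limma adjusted p = 4.05e-05). With the lowest intensity subtracted the differences were -3.20 for Hmcn1, -1.99 for Fbln7, -0.63 for Emilin2 and -0.73 for Mmrn2. Emilin2 fell by 0.30 and Mmrn2, an endothelial protein of the emilin family, by 0.46, the last a call that was lost with the methods' test and without adult replicate 2 or 3 or young replicate 1, 2 or 3. The remaining lysyl oxidases, named for their family, did not pass the test, Loxl3 with a difference of -0.05 ± 0.051 (limma adjusted p = 0.439) and Loxl4 with 0.10 ± 0.028 (limma adjusted p = 0.0229).

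In a list on lysyl oxidase activation and copper supply, which also held Pcolce and Sod3, 6 of 8 genes were lower and 1, Sod3, was higher. Bmp1, the proteinase that removes the propeptide of lysyl oxidase, fell by 1.49 (limma adjusted p = 1.07e-05) and its enhancer on procollagen Pcolce by 1.81 (limma adjusted p = 5.66e-05). Extracellular superoxide dismutase (Sod3), a copper enzyme of the artery wall, rose by 1.28 (limma adjusted p = 3.16e-05). Tll2, a relative of Bmp1, was called with a difference of -0.05, which was lost with ribosomal protein centring and without young replicate 1, 2 or 3. With ribosomal protein centring, 3 of the 8 were lower.

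Of 10 genes for proteases that can degrade elastin, or that act with them, 4 were lower and 1 was higher. Over all genes, 16% were lower and 16.7% higher, so the single higher gene is no more than that background share. The other 5 did not pass the test. Membrane-type metalloproteinase Mmp14, the activator of the gelatinase Mmp2, fell by 1.71 (limma adjusted p = 1.34e-06) and Mmp2 by 0.90 (limma adjusted p = 0.00288, a call lost without young replicate 1). Mmp7, at 6.97 in adult and 7.11 in young arteries, was called with a difference of -0.14, a call that was lost with ribosomal protein centring (-0.10). With the lowest intensity subtracted, the difference was -0.502 for Mmp7 and 1.62 for Ctss. Cathepsin S (Ctss), an elastolytic protease of macrophages, rose by 0.65 ± 0.082 (limma adjusted p = 5.39e-04), and 4 of 5 macrophage markers were also higher in adult arteries, with a mean over the list between 7.85 and 8.04 in adult and between 7.47 and 7.63 in young arrays. The part of macrophage RNA in the Ctss difference was not tested. Of 7 protease inhibitors 2 were higher, cystatin C (Cst3, an inhibitor of cathepsins, by 1.27, limma adjusted p = 4.12e-05) and the metalloproteinase inhibitor Timp4 (by 1.26, limma adjusted p = 3.58e-05), and the other 5 did not pass the test.

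Of 8 genes for the elastin receptor complex and for integrins, 3 were higher and 1 was lower (2 with ribosomal protein centring). Integrins Itgb5 and Itga5 rose by 0.72 ± 0.054 and 0.56 ± 0.092, and Itgb1 by 0.31 ± 0.057, a call lost without adult replicate 2 or 3. The galactosidase locus Glb1, whose splice variant encodes the elastin-binding subunit of the receptor complex, fell by 0.85 ± 0.142 (limma adjusted p = 0.00225). Of 7 growth factors and cytokines known to act on elastin expression, 2 were higher and 2 lower. Igf1 fell by 0.64 and Tgfb2 by 0.73. Fgf2 rose by 0.77 (limma adjusted p = 5.49e-06, and 1.37 with the lowest intensity subtracted) and Tgfb3 by 0.74. Tgfb1, Tnf and Il1b did not pass the test. The part of these factors in the fall of Eln was not tested.

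**Figure D4:**
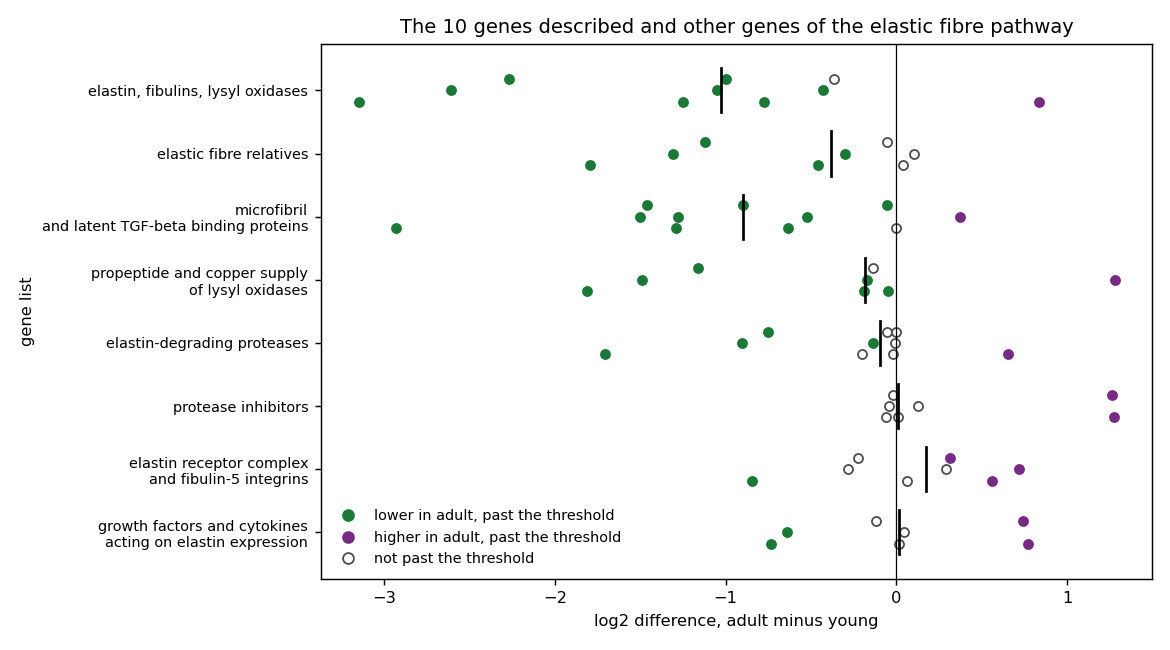
Adult minus young log2 difference (horizontal axis) of the 10 genes (top row) and of 59 other genes in 7 lists, 1 point per gene, with a vertical bar at each list's median, filled points for genes past the threshold and open points for the rest. Medians are -1.03 for the 10 genes and -0.90 for the microfibril list, and between -0.38 and 0.18 for the others.

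The tissue carried the markers of smooth muscle. The mean of 6 smooth muscle markers, Myh11 and Tagln among them, was between 12.54 and 12.66 in adult and between 11.82 and 11.91 in young arrays, and all 6 were higher in adult arteries. Fibroblast markers lay between 10.59 and 10.73 in adult and between 10.75 and 10.83 in young arrays, with 4 of 7 lower and 2 higher, and endothelial markers between 8.22 and 8.73 in adult and between 9.35 and 9.98 in young arrays, with 2 of 5 lower. Markers of dividing cells were lower in adult arteries in 4 of 4 genes (7.02 to 7.04 against 8.63 to 8.85). Skeletal muscle markers, of which 1 of 9 was lower, lay between 7.70 and 7.78 in adult and between 7.74 and 8.28 in young arrays. Cartilage, another tissue rich in matrix, showed 2 of 3 markers lower (7.497 to 7.61 against 7.65 to 7.80). Adipocyte markers (7.07 to 7.18 in adult against 7.15 to 7.47 in young arrays), Schwann cell markers (7.27 to 7.32 against 7.32 to 7.43) and red blood cell markers (9.04 to 9.47 against 9.49 to 10.26) did not pass the test. The part of these shifts in the differences of the 10 genes was not tested.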

How the data were processed

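Values of 8 arrays (Affymetrix Rat Gene 1.0) were analysed. Per the labels and methods, the authors applied RMA and quantile normalization with a custom chip definition of 1 probe set per Entrez gene, and deposited log2 expression. For the RMA version: not given in the sources used here. The sorted values of the 8 columns differed by 0, so the table cannot show a global shift between ages. The number of arrays limits the precision.

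Symbols came from the platform annotation, updated through the Entrez identifier (GRCr8): of 19239 probe sets, 16592 had 1 symbol and 0 more than 1, while the annotation table left 2647 without an entry, which are not named here. Smooth muscle actin Acta2 was not analysed here.

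Ages were compared with limma 3.58.1 (R 4.3.3, lmFit and eBayes, no covariate), and the fit was tested on simulated data. Pairs of genes were compared by an exact permutation test of their within-array log2 difference (SciPy 1.17.1, adjusted over 22 pairs, threshold 0.05). The genes and lists were chosen with earlier results of these data known. Named were the 10 genes, the 2 highest and 2 lowest called genes of each list, the 5 genes most like Eln, marker genes, and a few genes chosen otherwise, as stated beside them. Alternatives were the methods' one-way ANOVA, trend with robust variances, array weights, centring on 36 ribosomal protein genes, values after the table's lowest intensity (111) was taken off and 16 added, removal of the dimmest 25% of genes, blocks by replicate number or sample code, each array left out, a threshold of 0.05 and a fold of 1.5.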

Additional observations from a re-analysis of the deposited data

Results flagged for a closer look

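The young value of Eln in replicate 4 stood apart from the other young arrays, at 13.44 against 13.41 in the other 3, which held the same value. The distance was 0.02 on the log2 scale and corresponds to 1 rank at the top of the table, the 8th in place of the 9th. Of 20 groups of 4 arrays examined (10 genes at 2 ages) this was the 1 that stood out, and chance flags about 1 in 20 groups.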

How the results depend on the processing

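The number of the 10 genes lower in adult arteries was 8 with each array left out and under the other alternatives, except 9 with ribosomal protein centring or a threshold of 0.05 and 7 with a fold of at least 1.5. The single gene higher, Efemp1, was called in none (0) of the fits with the methods' ANOVA or the replicate block and in 0 to 1 with an array left out. Its difference of 0.83 had an adjusted p of 0.0163 with the ANOVA and 0.031 with the replicate block, and without 1 array it lay between 0.68 and 0.94. Fbln1 (-0.33, adjusted p = 0.00762) passed with ribosomal protein centring, where the median difference of all genes was 0.0372. The difference of Fbln1 was smaller there than without centring. The labels number the replicates 1 to 4 at each age, but same-numbered arrays did not deviate together (correlations from -0.08 to 0.04), so the numbers do not pair samples, and with the replicate block 4408 genes were called in place of 6296, and 21 pathway genes were lower and 7 higher in place of 27 and 10. Of the pathway genes named above, Ltbp1, Adamtsl2, Tll2, Mmp2, Glb1, Itga5 and Tgfb3 were not called with the block. Without 1 array, 22 to 27 pathway genes were lower and 8 to 11 higher. Over all genes, 3080 were lower and 3216 higher. Ribosomal protein centring gave 1896 lower and 2526 higher, and a fold of at least 1.5 gave 711 lower and 716 higher. With an array left out, 2510 to 2899 were lower and 2441 to 2969 higher. The change of Loxl1 minus that of Loxl2, which did not pass the test, turned from -0.0549 to 0.0189 with the lowest intensity subtracted. That setting moved Fbln2 against Fbln5 below the threshold (adjusted p = 0.0662) and Eln against Fbln2 past it (adjusted p = 0.0349). Pairs were not tested with an array left out, since the smallest exact p would be 0.0571. Centring cannot change a within-array ratio. Weak signals, such as Efemp1 in young arteries, and Adamtsl2 and Tll2, lie near the floor of the table at 6.797. A difference on the log2 scale can understate a change there. Adamtsl2 and Tll2 differed by -0.18 and -0.15 with the lowest intensity subtracted, but by -0.02 each with ribosomal protein centring. The causes of these changes were not tested.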
